A study of Mus musculus with 8 samples.

Results

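The vacuolar proton pump and the lysosome were examined through 34 genes in mouse hearts that lacked the voltage-gated proton channel HVCN1 and in wild-type hearts. The members were a fixed list of symbols looked up in the deposited counts, chosen with earlier results of these data known. They were 19 proton pump genes and 15 lysosomal genes out of 39056 genes listed. RNA was taken from the hearts of 4 HVCN1 null mice (HVCN1-/-, labelled Hv1 null) and 4 wild-type (WT) mice with a C57BL/6 background, all male and 3 months old, with 1 library per heart. The targeted allele, whether the null line shared the full WT background and whether the mice were littermates are not given in the sources used here. The hearts carry the numbers of their labels, 1 to 4 for HVCN1 null and 5 to 8 for WT.

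The vacuolar proton pump (V-ATPase) uses ATP to move protons into lysosomes, endosomes and secretory vesicles. Its V1 domain lies in the cytosol and splits ATP, with the A and B subunits forming the head, the D and F subunits the central stalk, and the C, E, G and H subunits holding and regulating the head. Its V0 domain lies in the membrane, where a ring of c-type subunits turns against the a subunit and carries protons across. The lysosome uses the acid for its hydrolases and for proton-coupled transport, and the transcription factor TFEB raises the genes of both by binding the letters CACGTG in their promoters. In heart muscle this system clears damaged proteins and mitochondria. HVCN1, by contrast, lets protons flow out of the cell passively.

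Of the 34 members, 27 had a promoter in the RefSeq promoter table for GRCm38.p6, which spans 250 bases before to 50 bases after each gene's start. The letters CACGTG, which read the same on both strands, stood in the promoters of 9 of these 27 (33.3%), against 8.09% of all 27025 genes in the table. The longer TCACGTGA, which contains CACGTG and is also its own reverse complement, stood in 6 of 27 (22.2%), against 1.12% of all genes. The windows of 30 bases below show the longer match in the 6 members that hold it, and the matches nearest the start of Lamp1 and Atp6v0b. Each reads 5′ to 3′ along the gene's strand, with CACGTG in capitals.
Atp6v1a, chr16:44139373-44139402, minus strand: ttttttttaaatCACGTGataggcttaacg
Atp6v0d1, chr8:105566050-105566079, minus strand: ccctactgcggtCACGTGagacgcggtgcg
Atp6v0e, chr17:26676387-26676416, plus strand: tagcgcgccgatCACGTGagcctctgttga
Mcoln1, chr8:3500462-3500491, plus strand: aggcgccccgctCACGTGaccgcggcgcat
Clcn7, chr17:25133386-25133415, plus strand: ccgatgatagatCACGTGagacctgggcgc
Ctsd, chr7:142387908-142387937, minus strand: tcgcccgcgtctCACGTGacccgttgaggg
Lamp1, chr8:13159134-13159163, plus strand: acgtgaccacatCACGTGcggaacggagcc
Atp6v0b, chr4:117887330-117887359, minus strand: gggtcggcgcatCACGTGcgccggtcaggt
A match is a description of the letters only, and the remaining member with CACGTG was Ctsl.

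The deposited values were raw read counts per gene, and they were turned into CPM, the share of a heart's counts in parts per 1e+06, after TMM scaling of the library sizes. Total counts ran from 25851255 to 38874640 per heart, and the mitochondrial share was 23.7% to 29.5% in HVCN1 null and 25.3% to 30.2% in WT hearts. Hvcn1 itself, which checks the labels, gave 16 counts over the 4 HVCN1 null hearts (0.0380 to 0.180 CPM) and 318 over the 4 WT hearts (1.51 to 2.62 CPM). The tissue label was met by the 11 cardiomyocyte markers examined, whose summed level was 70703 to 90503 CPM per heart. Atrial markers varied from heart to heart within both groups, with Myl7 at 632, 609, 578 and 1185 CPM in hearts 2, 3, 5 and 7 and at 17, 33.6, 0.618 and 0.169 CPM in hearts 1, 4, 6 and 8. The libraries came from heart samples of mixed cells, so that fewer cells of a type and less RNA per cell cannot be told apart. Whether each sample held the whole heart, atria included, is not given in the sources used here.

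All 34 members passed the filter on low counts and were expressed in every heart of both groups. Per kilobase of annotated exon, the lysosomal protease gene Ctsd had the highest level, with 203 ± 27.7 CPM per kb in HVCN1 null and 194 ± 24.0 in WT hearts (SD, n = 4 each). Lamp1, a heavily glycosylated protein of the lysosomal membrane, followed with 140 ± 3.65 and 145 ± 9.34 CPM per kb, and the protease gene Ctsb with 72.9 ± 6.93 and 72.4 ± 1.13. Among pump genes, Atp6v1g1 (subunit G) was highest with 60.7 ± 6.90 and 61.0 ± 7.24 CPM per kb, and Atp6v1g2, a further G isoform best known from brain, had 1.41 ± 0.118 and 1.86 ± 0.111. The lowest pump gene was Atp6v1g2 in HVCN1 null hearts and Atp6v1h, with 1.6 ± 0.0676 and 1.52 ± 0.121, in WT hearts. Of the subunits of the catalytic head, Atp6v1a was at 3.22 ± 0.365 and 3.26 ± 0.176 CPM per kb and Atp6v1b2 at 11.4 ± 0.398 and 10.5 ± 0.609. These levels divide by all exons annotated for a gene, so a gene with long exons that are rarely used reads low.

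**Figure D1:**
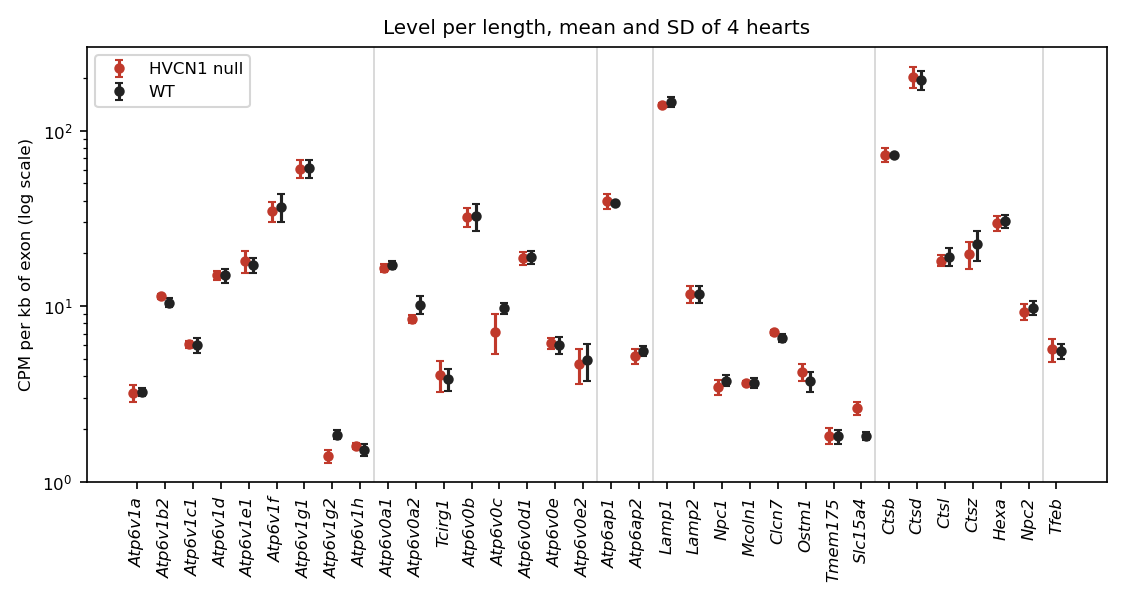
Mean level of each member per kilobase of annotated exon on a log axis (CPM per kb), with bars for the SD of 4 hearts, HVCN1 null in red and WT in black. Grey lines part V1, V0, accessory, lysosomal membrane, lysosomal lumen and Tfeb, and the means run from 1.41 for Atp6v1g2 to 203 for Ctsd, with the groups close together for most members.

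Between the genotypes, 1 of the 34 members differed at an adjusted p under 0.05, Slc15a4, which was higher in HVCN1 null hearts. The study had already reported this increase from the same hearts. Of all 14796 genes tested, 1.14% passed the same limit (edgeR quasi-likelihood test with Benjamini-Hochberg adjustment over all genes tested), 110 of them higher and 59 lower. At an unadjusted p under 0.05, 4 of the 34 members (11.8%) passed, against 11.0% of all genes, with Slc15a4 higher and Atp6v1g2, Atp6v0a2 and Atp6v0c lower. The 4 HVCN1 null hearts lay wholly above or below the 4 WT hearts for 2 members (5.88%), Slc15a4 and Atp6v1g2, against 7.06% of all genes. The log2 fold changes, HVCN1 null over WT throughout, were positive for 16 members and negative for 18, with a median of -0.01 that equals the median of all genes tested. These shares lie near those of all genes.

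**Figure D2:**
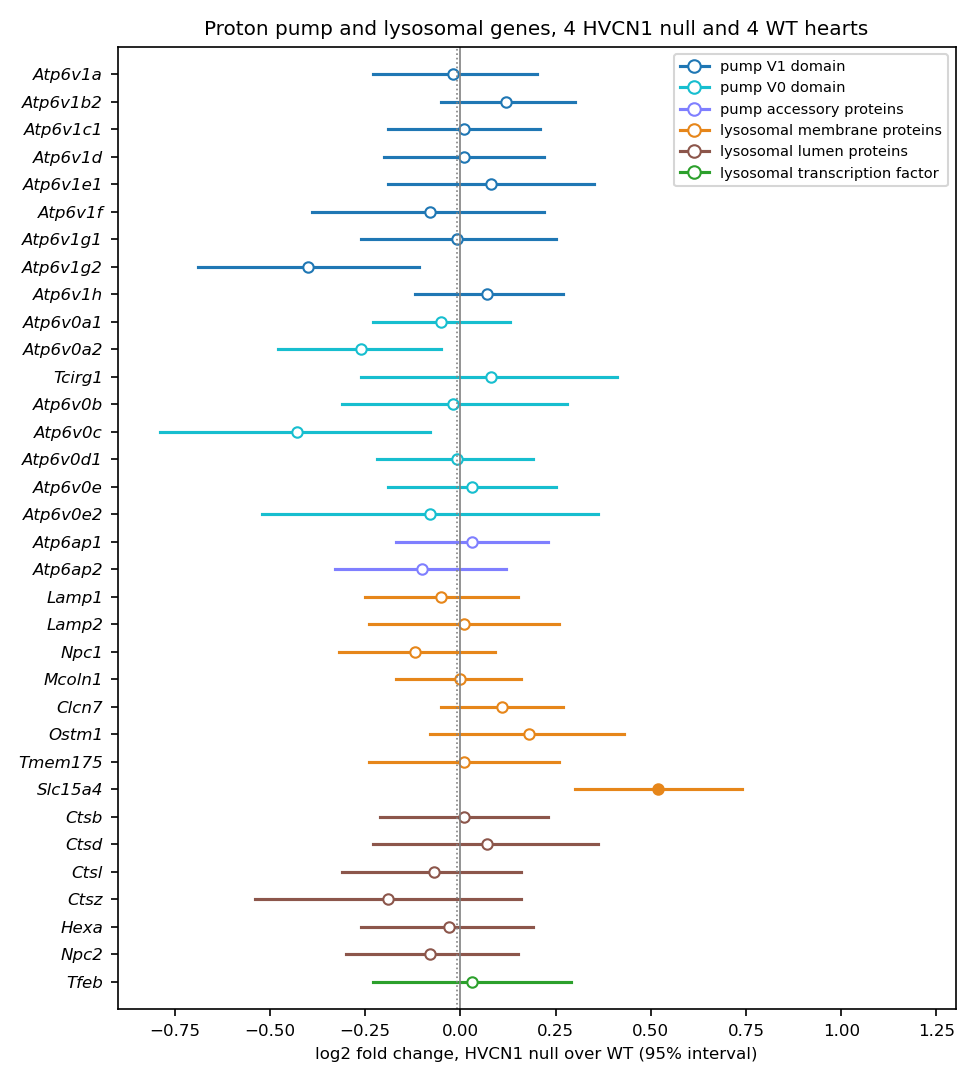
Log2 fold change of each member, HVCN1 null over WT, with its 95% interval from the edgeR quasi-likelihood fit, coloured by group of genes; the filled point passed an adjusted p of 0.05 and the dotted line is the median of all genes tested. Slc15a4 stands to the right at 0.52, Atp6v0c, Atp6v1g2 and Atp6v0a2 to the left at -0.43, -0.40 and -0.26, and the intervals of the other 30 members include 0.

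For the 19 pump genes as a group, the median log2 fold change was -0.01, with 0 called and 3 lower at an unadjusted p under 0.05. DESeq2, voom and the exact and likelihood ratio tests of edgeR also called 0 pump genes. Their summed level was 823, 821, 918 and 875 CPM in HVCN1 null hearts and 913, 888, 813 and 887 CPM in WT hearts, and the groups overlapped. For the 15 lysosomal genes the median was 0.01, with 1 called, and the summed level was 1817, 1710, 1992 and 1900 CPM in HVCN1 null and 1875, 1923, 1756 and 1838 CPM in WT hearts. Standard errors of the log2 fold changes were 0.07 to 0.20 for the members. Within a group, the same hearts were often high or low across members. HVCN1 null heart 3 had the highest value of its group for 19 of the 34 members and WT heart 5 for 15, while WT heart 7 had the lowest value of its group for 15 and HVCN1 null heart 1 for 14.

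In the V1 domain, the median log2 fold change of the 9 genes was 0.01. The head subunits Atp6v1a and Atp6v1b2 had log2 fold changes of -0.02 (95% interval -0.23 to 0.20) and 0.12 (-0.05 to 0.30). The stalk subunits Atp6v1d and Atp6v1f had 0.01 (-0.20 to 0.22) and -0.08 (-0.39 to 0.22). Among the subunits that hold and regulate the head, Atp6v1c1 had 0.01 (-0.19 to 0.21), Atp6v1e1 0.08 (-0.19 to 0.35) and Atp6v1h 0.07 (-0.12 to 0.27). None of these 7 passed an unadjusted p of 0.05, and a change of 0.39 or more on the log2 scale in either direction lay at or outside each interval.

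Subunit G is encoded by more than a single gene. Atp6v1g1 had 59.4, 65.6, 75.4 and 75.2 CPM in HVCN1 null hearts and 76.3, 74.6, 58.2 and 67.8 CPM in WT hearts, with a log2 fold change of -0.01 (-0.26 to 0.25). Atp6v1g2 (ENSMUSG00000024403, chromosome 17, 35233660 to 35238767 in GRCm38) had 3.18, 3.91, 3.50 and 3.53 CPM in HVCN1 null hearts and 4.71, 4.51, 4.39 and 5.03 CPM in WT hearts. Every HVCN1 null heart was below every WT heart. The log2 fold change was -0.40 (standard error 0.13, unadjusted p = 0.0111, edgeR quasi-likelihood adjusted p = 0.244), which missed the adjusted threshold. The exact permutation p of the difference of -1.13 CPM was 0.0286, the smallest that 70 assignments allow. That value follows from the lack of overlap, which 7.06% of all genes tested shared. Per kilobase, Atp6v1g2 made 2.28% ± 0.268 of the summed G isoforms in HVCN1 null and 2.98% ± 0.338 in WT hearts (SD, n = 4 each). The gene lies in the major histocompatibility region, where 12 of the 89 other tested genes within 1 Mb were called, against 1.14% of all genes tested. Among them were C4a, H2-Q1, H2-Q2 and H2-Q10, and also Hspa1a, Hspa1b and Ppp1r10. The part of that neighbourhood in the Atp6v1g2 values was not tested. Of its exon bases, 5.74% overlap Nfkbil1 on the opposite strand, and the strand setting of the counting is not given in the sources used here.

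In the V0 domain, the median log2 fold change of the 8 genes was -0.03, with 2 lower at an unadjusted p under 0.05. The a subunit, which forms the path for protons and directs the pump to its membrane, has several isoforms. Atp6v0a1 had 106, 112, 115 and 102 CPM in HVCN1 null hearts and 111, 111, 107 and 121 CPM in WT hearts, with a log2 fold change of -0.05 (-0.23 to 0.13). Atp6v0a2 (ENSMUSG00000038023, chromosome 5, 124628576 to 124724455) had 61.1, 56.3, 55.1 and 54.9 CPM in HVCN1 null hearts and 61.0, 66.9, 65.7 and 79.6 CPM in WT hearts. The groups touched, since HVCN1 null heart 1 and WT heart 5 were nearly equal. The log2 fold change of Atp6v0a2 was -0.26 (standard error 0.10, unadjusted p = 0.0216, edgeR quasi-likelihood adjusted p = 0.324), and the difference of -11.4 CPM had an exact permutation p of 0.0571. The gene lies 2.39 Mb from Hvcn1 on the same chromosome. Tcirg1, the a3 isoform known from osteoclasts, had 22.5, 15.7, 21.3 and 15.3 CPM in HVCN1 null and 20.9, 16.1, 18.4 and 15.3 CPM in WT hearts, with a log2 fold change of 0.08 (-0.26 to 0.41).

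Of the summed a isoforms per kilobase, Atp6v0a1 made 56.9% ± 2.43 in HVCN1 null and 55.0% ± 0.689 in WT hearts (SD, n = 4 each). Atp6v0a2 made 29.0% ± 1.46 and 32.4% ± 2.28, with ranges that overlapped, and Tcirg1 13.9% ± 2.13 and 12.3% ± 2.14. The kidney isoform Atp6v0a4 was near 0, with 0.275% ± 0.228 and 0.283% ± 0.130. Of the 6 tissue-restricted pump isoforms outside the 34, Atp6v0a4 alone passed the filter on low counts. It had 0.901, 0.401, 0.152 and 0.170 CPM in HVCN1 null and 0.278, 0.556, 0.635 and 0.270 CPM in WT hearts and was not called. Atp6v1b1 and Atp6v1g3 had 0 counts in all 8 hearts.

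The c ring is built mainly from the product of Atp6v0c, with the related product of Atp6v0b. Atp6v0b had a log2 fold change of -0.02 (-0.31 to 0.28), with 57.8 to 76.4 CPM in HVCN1 null and 57.3 to 83.4 CPM in WT hearts. Atp6v0c (ENSMUSG00000024121, chromosome 17, 24163866 to 24169702) had 22.9, 24.5, 17.4 and 32.5 CPM in HVCN1 null hearts and 31.3, 33.5, 30.7 and 36.2 CPM in WT hearts. HVCN1 null hearts 1, 2 and 3 were below every WT heart, while heart 4 lay among them. The log2 fold change was -0.43 (standard error 0.16, unadjusted p = 0.0206, edgeR quasi-likelihood adjusted p = 0.317), and the exact permutation p of the CPM difference was 0.0857.

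Part of the Atp6v0c transcript has a near-identical copy, and how reads that match both were counted is not given in the sources used here. The annotated exons of Atp6v0c hold 3384 bases. Atp6v0c-ps2, a processed pseudogene on chromosome 6 (37806086 to 37806550 in GRCm38), matched the Atp6v0c transcript over all its 465 bases with 99.8% identity and 1 mismatch. The stretch around the mismatch, from base 91 to base 131 of the copy, shows how little a read there has to tell them apart. The capital marks the substitution T111C, with the base of Atp6v0c first and positions counted from 1 at the 5′ end of the copy.
Atp6v0c: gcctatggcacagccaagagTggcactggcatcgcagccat
Atp6v0c-ps2: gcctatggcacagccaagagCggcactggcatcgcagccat
The copy was given 383, 461, 830 and 11 counts in HVCN1 null hearts and 16, 11, 14 and 7 counts in WT hearts. It thus stood at 11.5, 12.3, 31.5 and 0.311 CPM in HVCN1 null hearts and at 0.236 to 0.405 CPM in the WT group, high in the same 3 hearts in which Atp6v0c was low. The copy's own log2 fold change was 5.32 (standard error 1.02, edgeR quasi-likelihood adjusted p = 0.0395). That call was kept in 1 of the 8 fits that left out a single heart, and was lost with voom (adjusted p = 0.598). Atp6v0c and the copy together had 34.4, 36.9, 48.9 and 32.8 CPM in HVCN1 null hearts and 31.7, 33.9, 31.1 and 36.5 CPM in WT hearts. On these summed counts, an alternative chosen after seeing the data, the log2 fold change was 0.20 (standard error 0.13, edgeR quasi-likelihood adjusted p = 0.667), so its direction turned. The lower Atp6v0c count is thus uncertain.

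**Figure D3:**
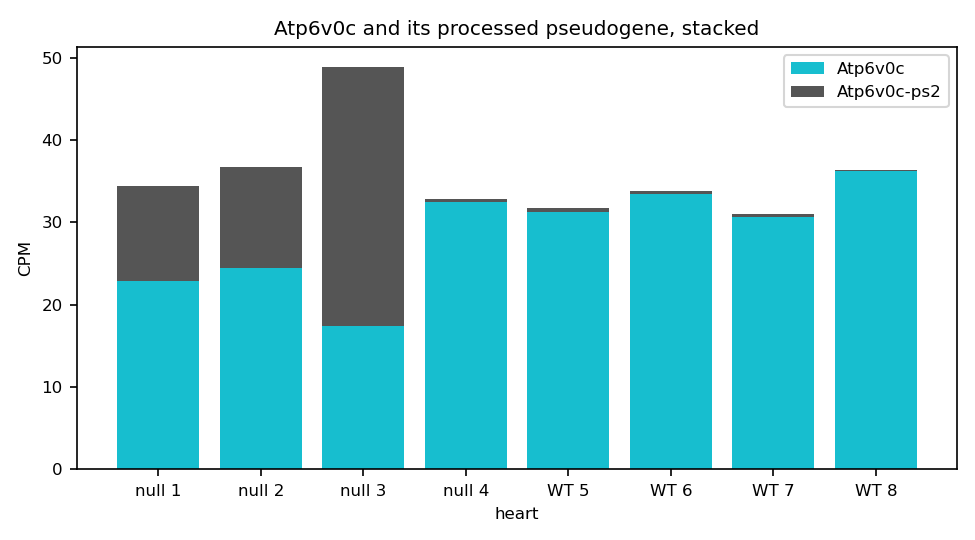
CPM of Atp6v0c (blue) and of its processed pseudogene Atp6v0c-ps2 (grey) in each heart, stacked from 0. In HVCN1 null hearts 1, 2 and 3 the pseudogene holds 11.5, 12.3 and 31.5 CPM, while in HVCN1 null heart 4 and the WT hearts it holds less than 1 CPM.

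The remaining V0 and accessory genes did not pass an unadjusted p of 0.05. Atp6v0d1, which couples the ring to the stalk, had a log2 fold change of -0.01 (-0.22 to 0.19). The small e subunit, which stands beside the a subunit in the membrane, has a pair of isoforms. Atp6v0e had 22.1, 22.3, 25.4 and 21.8 CPM in HVCN1 null and 25.2, 23.2, 21.8 and 19.2 CPM in WT hearts, and its log2 fold change was 0.03 (-0.19 to 0.25). Atp6v0e2 had 8.53, 13.6, 12.9 and 9.44 CPM in HVCN1 null and 12.3, 10.7, 15.2 and 8.71 CPM in WT hearts, and its log2 fold change was -0.08 (-0.52 to 0.36), and its standard error of 0.20 was the largest of the members. Atp6v0e2 was highest in hearts 2, 3, 5 and 7, the same hearts in which the atrial marker Myl7 was high. The summed level of the 7 atrial markers was 385, 4672, 3782 and 420 CPM in HVCN1 null hearts and 3384, 206, 8602 and 193 CPM in WT hearts. With an atrial score as a covariate, the log2 fold change of Atp6v0e2 was -0.19 (standard error 0.122, edgeR quasi-likelihood adjusted p = 0.613). Atp6v0e2 made 42.7% ± 4.84 of the summed e isoforms per kilobase in HVCN1 null and 44.6% ± 5.05 in WT hearts. Atp6ap1, which assists pump assembly, and Atp6ap2, also called the prorenin receptor, had log2 fold changes of 0.03 (-0.17 to 0.23) and -0.10 (-0.33 to 0.12).

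Of the 8 lysosomal membrane proteins, Slc15a4 was the member called. Slc15a4 (ENSMUSG00000029416, chromosome 5, 127595664 to 127632897) encodes a transporter that uses the proton gradient to carry histidine and small peptides out of endosomes and lysosomes. It had 15.3, 12.5, 13.6 and 14.5 CPM in HVCN1 null hearts and 10.5, 9.43, 9.20 and 9.86 CPM in WT hearts, so that every HVCN1 null heart was above every WT heart. Its level rose 1.43-fold, from 9.74 ± 0.560 to 14.0 ± 1.20 CPM (SD, n = 4 each), and its log2 fold change was 0.52 (standard error 0.10, 95% interval 0.30 to 0.74, edgeR quasi-likelihood adjusted p = 0.0376). The exact permutation p of the difference of 4.22 CPM was 0.0286, the smallest that 70 assignments allow. Any gene whose groups do not overlap has this p, and 7.06% of all genes tested were such genes. The call was lost in 7 of the 8 fits that left out a single heart, with adjusted p from 0.0603 (without WT heart 5) to 0.145 (without WT heart 6), and was kept without HVCN1 null heart 2 (adjusted p = 0.0360). In the same 8 fits the log2 fold change stayed between 0.47 and 0.57. The gene lies 5.35 Mb from Hvcn1, with 0 other tested genes within 1 Mb, and 8.04% of its exon bases overlap a gene on the opposite strand.

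The other lysosomal membrane proteins did not pass an unadjusted p of 0.05. The structural proteins Lamp1 and Lamp2 had log2 fold changes of -0.05 (-0.25 to 0.15) and 0.01 (-0.24 to 0.26). Npc1, which passes cholesterol out of the lysosome, had -0.12 (-0.32 to 0.09), and Mcoln1, the calcium-permeable channel TRPML1, had -0.00 (-0.17 to 0.16). Clcn7, a chloride-proton exchanger, and Ostm1, its partner subunit, had 0.11 (-0.05 to 0.27) and 0.18 (-0.08 to 0.43). Tmem175, a lysosomal potassium channel that also leaks protons, had 0.01 (-0.24 to 0.26), and 35.3% of its exon bases overlap Dgkq on the opposite strand.

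None of the 6 lysosomal lumen proteins passed an unadjusted p of 0.05. The proteases Ctsb, Ctsd, Ctsl and Ctsz had log2 fold changes of 0.01, 0.07, -0.07 and -0.19, with intervals that reached from -0.54 for Ctsz to 0.36 for Ctsd. Hexa, a subunit of the hexosaminidase that breaks down gangliosides, had -0.03 (-0.26 to 0.19), and Npc2, which hands cholesterol to NPC1, had -0.08 (-0.30 to 0.15). Of the exon bases of Ctsd, 34.4% overlap the annotated gene Gm49369 on the same strand, which had 0 counts in all hearts, and 26.8% of those of Ctsl overlap a gene on the opposite strand. Tfeb, the transcription factor, had 26.2, 31.0, 37.2 and 34.9 CPM in HVCN1 null and 34.8, 32.9, 27.7 and 31.1 CPM in WT hearts, and its log2 fold change was 0.03 (-0.23 to 0.29). The 9 members with CACGTG in the promoter, shown in part above, had log2 fold changes from -0.07 to 0.11 with a median of -0.01. The 18 with a promoter in the table and no match ran from -0.43 to 0.52, also with a median of -0.01.

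In the wider pathway, genes of nutrient sensing at the lysosomal surface held the further call. Of the 18 tested genes of lysosomal nutrient signalling, 1 was called, Flcn, and 3 passed an unadjusted p of 0.05, all higher in HVCN1 null hearts. These are 5.56% and 16.7% of the list, against 1.14% and 11.0% of all genes tested, and whether the list stands apart was not tested. Of its log2 fold changes, 13 were positive and 5 negative, with a median of 0.04 against -0.01 for all genes tested. The median absolute log2 fold change was 0.06, against 0.12 for all genes tested. Flcn (ENSMUSG00000032633, chromosome 11, 59791408 to 59810016), folliculin, works with the FNIP proteins on the RagC and RagD GTPases of the lysosome, which hold TFEB and its relative TFE3 in the cytosol. It had 65.4, 71.9, 74.6 and 71.8 CPM in HVCN1 null hearts and 46.7, 46.8, 48.6 and 52.9 CPM in WT hearts, without overlap. Its log2 fold change was 0.54 (standard error 0.08, 95% interval 0.36 to 0.72, edgeR quasi-likelihood adjusted p = 0.0120), and it was called in 7 of the 8 fits that left out a single heart, with an adjusted p of 0.0641 without WT heart 6.

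Fnip2, which encodes a partner of folliculin, had 49.1, 32.2, 29.1 and 29.5 CPM in HVCN1 null hearts and 18.3, 19.4, 20.6 and 28.8 CPM in WT hearts. The lowest HVCN1 null heart was just above the highest WT heart. The log2 fold change was 0.69 (standard error 0.19, edgeR quasi-likelihood adjusted p = 0.163), which missed the threshold. Rragc, which encodes RagC and is named after its values were seen, had 41.5 to 44.6 CPM in HVCN1 null and 36.2 to 39.4 CPM in WT hearts, and its log2 fold change was 0.18 (edgeR quasi-likelihood adjusted p = 0.376). Neither Flcn, Fnip2 nor Slc15a4 had CACGTG in its promoter window. Tfe3 and Mitf, the relatives of Tfeb, had log2 fold changes of 0.08 (-0.07 to 0.24) and 0.05 (-0.25 to 0.35).

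**Figure D4:**
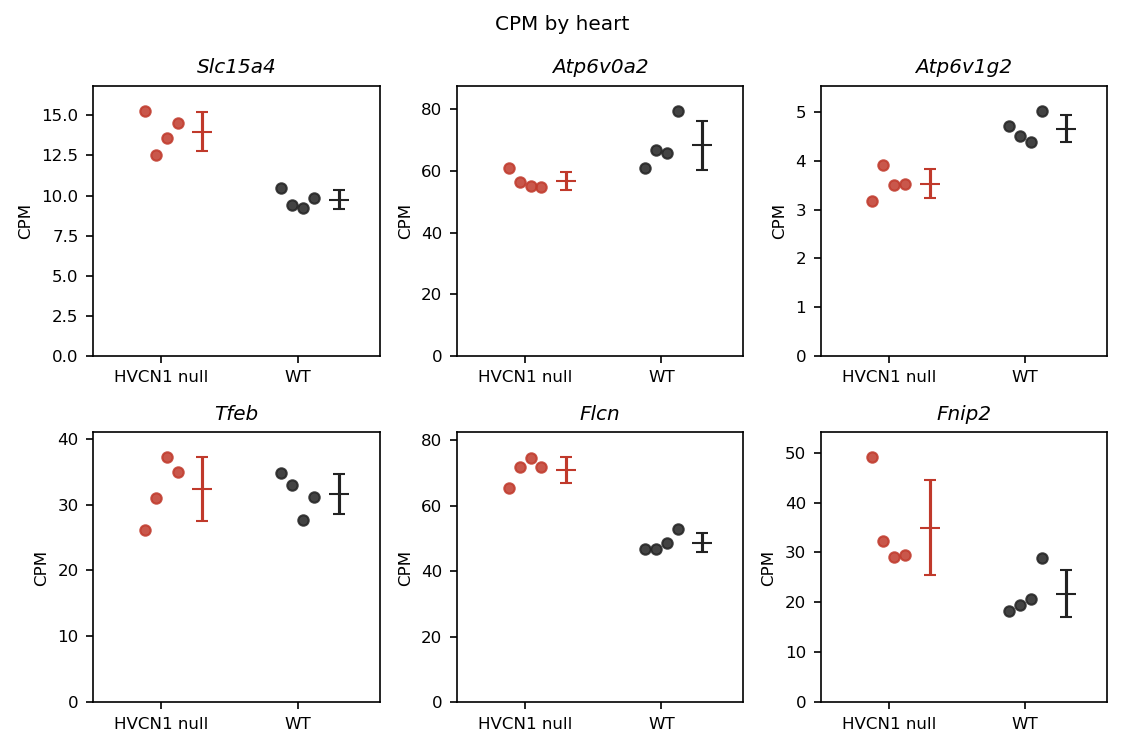
CPM in each heart (points), with the mean and SD of 4 hearts beside them, for 3 members that differed at an unadjusted p of 0.05, Tfeb, and the nutrient-signalling genes Flcn and Fnip2; every axis starts at 0. For Slc15a4, Atp6v1g2, Flcn and Fnip2 the groups do not overlap, while for Tfeb and Atp6v0a2 they do.

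Of 11 tested pump assembly and regulatory genes, 0 were called and 1 (9.09%) passed an unadjusted p of 0.05, against 11.0% of all genes. That was Dmxl2, a subunit of the complex that reassembles V1 onto V0, with 51.0, 46.4, 34.5 and 39.3 CPM in HVCN1 null and 28.0, 34.2, 32.8 and 38.1 CPM in WT hearts (log2 fold change 0.37, edgeR quasi-likelihood adjusted p = 0.322). Its relative Dmxl1 had 35.8, 35.1, 20.9 and 30.9 CPM in HVCN1 null and 23.1, 40.3, 37.5 and 42.9 CPM in WT hearts, and its groups overlapped (log2 fold change -0.23, interval -0.69 to 0.23). Of 29 other lysosomal membrane proteins, 0 were called and 1 (3.45%, against 11.0% of all genes) was lower at an unadjusted p under 0.05, Slc15a3, a relative of Slc15a4. Slc15a3 had 6.24, 4.98, 4.86 and 3.53 CPM in HVCN1 null and 6.55, 7.05, 6.27 and 6.08 CPM in WT hearts (log2 fold change -0.40, edgeR quasi-likelihood adjusted p = 0.400). The study reported Slc15a3 as decreased in the same hearts. Abcb9, a lysosomal peptide transporter, had 24.3, 18.1, 25.2 and 22.7 CPM in HVCN1 null and 18.3, 19.6, 16.6 and 21.4 CPM in WT hearts, again with overlap (log2 fold change 0.25, interval -0.01 to 0.52).

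Of 44 other lysosomal hydrolases and lumen proteins, 0 were called, 14 log2 fold changes were positive and 30 negative, with a median of -0.06. The positive share was 31.8%, against 47.3% of all genes tested, whose median was -0.01. The groups did not overlap for 5 of the 44 (11.4%), against 7.06% of all genes tested. At an unadjusted p under 0.05, 1 was higher, Dnase2a, and 4 were lower, among them Ctss, Ctsc and Pla2g15, a share of 11.4% against 11.0% of all genes. The protease gene Ctss had 11.9, 14.2, 14.4 and 13.4 CPM in HVCN1 null and 18.1, 16.4, 21.9 and 15.4 CPM in WT hearts (log2 fold change -0.42, edgeR quasi-likelihood adjusted p = 0.183, and 0.0343 with an atrial score as a covariate). DESeq2, voom and the other edgeR tests called 0 of these 44 genes. Dnase2a, the acid DNase, had 12, 12, 15.5 and 8.62 CPM in HVCN1 null and 10.8, 7.54, 8.78 and 8.31 CPM in WT hearts (log2 fold change 0.44, edgeR quasi-likelihood adjusted p = 0.376). Ctss and Ctsc are known to be abundant in macrophages, and 18 macrophage markers were examined beside them. All 18 had a negative log2 fold change, with a median of -0.32 and 0 called. An unadjusted p of 0.05 was passed by 6 of them (33.3%, against 11.0% of all genes). Their summed level was 369 to 467 CPM in HVCN1 null and 442 to 630 CPM in WT hearts. Among these markers, Lyz2 and Cx3cr1 were called by DESeq2 and by the exact and likelihood ratio tests of edgeR. Over all genes these tests called 466, 367 and 376, against 169 with the quasi-likelihood test. No macrophage marker was at 0 in any heart, and their part in the Ctss and Ctsc values was not tested. Among the other marker lists, 9 of the 11 cardiomyocyte markers and all 6 tested atrial markers had a negative log2 fold change, with 0 called. Of the 10 neuronal and Schwann cell genes, 5 were tested. Of these 5, 3 (60%), Sox10 among them, were higher at an unadjusted p under 0.05, against 11.0% of all genes. A further 1 of the 5 had a negative log2 fold change, and their standard errors were 0.21 to 0.40. All 7 erythroid genes had a negative log2 fold change. In the neuronal and Schwann cell list and in the erythroid list 0 were called, although DESeq2 and the same other edgeR tests called Sox10.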

How the data were processed

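RNA-seq libraries of 4 HVCN1 null and 4 WT hearts were analysed. The authors enriched poly-A RNA, read 50 nt from each end of the fragments, used STAR for alignment and featureCounts for counting on Ensembl genes, and deposited raw counts per gene and heart. The study's text names a human genome build, whereas the processing notes name mm10 and GRCm38 and the identifiers are of mouse, so symbols and positions were taken from the GENCODE M21 annotation of GRCm38, to which 38872 of 39056 identifiers (99.5%) matched. Tool versions and the strand setting are not given in the sources used here. The libraries were made with strand selection.

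With edgeR 4.0.16 (R 4.3.3), filterByExpr kept 14796 genes, libraries were TMM-scaled, and CPM values and log2 fold changes were computed. Genes were called by the quasi-likelihood test at a Benjamini-Hochberg adjusted p under 0.05 over all genes kept, two-sided. Differences of single members in CPM were tested by exact permutation (two-sided, 70 assignments, smallest possible p 0.0286). These p-values are given only for members already picked out by the other criteria. Nothing says how the mice were bred or sampled beyond 1 library per heart. The p-values set a difference against the variation between these hearts and cannot take litter into account. The labels give no batch. The members and lists were chosen with earlier results of these data known, so no test over a list was made. Genes given heart by heart were the members called, those past an unadjusted p of 0.05, those without overlap and the isoforms of subunits a, e and G, with the genes called and the 2 largest changes of each pathway list. Some genes of the lists are counted but not reported singly. Others are given by range or were named after their values were seen. Alternatives were RLE scaling and no scaling, no filter and a filter at 1 CPM in 4 hearts, the exact test and the likelihood ratio test of edgeR, DESeq2 1.42.0, voom of limma 3.58.1, an atrial score as covariate, each heart left out in turn and log2 CPM with a prior count of 2. Summed Atp6v0c counts and heart 4 alone were added after seeing the data. Copies were found with BLAST+ 2.17.0 at 95% identity over at least 80% of the copy. The scripts were tested on simulated data. Tables used pandas 2.3.3 and numpy 2.4.6 under Python 3.11.15, and plots matplotlib 3.10.9.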

Additional observations from a re-analysis of the deposited data

Results flagged for a closer look

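In 2 of the 74 groups of 4 hearts examined for the members, Flcn, Fnip2 and Atp6v0c-ps2, a single heart stood apart by Dixon's test at the 95% level, which chance gives in about 1 in 20 groups. Atp6v0e was 25.4 CPM in HVCN1 null heart 3, against 21.8 to 22.3 CPM in the other HVCN1 null hearts (gap over range 0.842). Fnip2 was 49.1 CPM in HVCN1 null heart 1, against 29.1 to 32.2 CPM in the other HVCN1 null hearts (gap over range 0.848). Without HVCN1 null heart 1 the log2 fold change of Fnip2 was 0.48 (edgeR quasi-likelihood adjusted p = 0.283).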

How the results depend on the processing

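The count of genes called over the whole series, beside which the members are read, was 169 with the quasi-likelihood test and 367 with edgeR's exact test, 376 with its likelihood ratio test and 466 with DESeq2. With 1 heart left out it was 71 (without WT heart 6) to 152. The members called stayed at 1 under every other test, scaling and filter listed, and lay between 0 and 1 with 1 heart left out, since Slc15a4 lost its call. Members past an unadjusted p of 0.05 were 2 to 4 and members without overlap 2 to 4 with 1 heart left out, the latter also 4 with a CPM above 1 in at least 4 hearts. Over the fits with 1 heart left out, the pump median ran from -0.05 to 0.04 (the latter without WT heart 5) and the lysosomal median from -0.04 to 0.02. Without scaling the medians were 0.02 and 0.04, against 0.03 for all genes tested. The CPM difference of Atp6v0a2 was -11.5 with the CPM filter (exact permutation p = 0.0286) and -13.9 to -7.67 with 1 heart left out, that of Atp6v0c -11.3 to -6.29, that of Atp6v1g2 -1.26 to -1.01 and that of Slc15a4 3.78 to 4.71.

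Directions turned under the planned settings in 18 members, whose reported log2 fold changes had an absolute value of at most 0.08. Without scaling, Atp6v1a became 0.02, Atp6v1g1 0.03, Atp6v0b 0.02, Atp6v0d1 0.02, Mcoln1 0.03 and Hexa 0.00. With RLE scaling and with DESeq2, Atp6v1g1 and Mcoln1 became 0.01. With no filter Mcoln1 became 0.00, with the atrial covariate Atp6v1g1 became 0.00 and Tmem175 -0.00, and with voom Tmem175 became -0.00. Summed with its copy, Atp6v0c became 0.20, and HVCN1 null heart 4 alone differed from the WT mean by -0.02. With 1 heart left out, log2 fold changes ran from -0.08 to 0.03 for Atp6v1a, -0.05 to 0.06 for Atp6v1c1, -0.05 to 0.05 for Atp6v1d, -0.15 to 0.06 for Atp6v1f, -0.08 to 0.06 for Atp6v1g1, -0.02 to 0.18 for Tcirg1, -0.09 to 0.12 for Atp6v0b, -0.06 to 0.04 for Atp6v0d1, -0.03 to 0.10 for Atp6v0e, -0.19 to 0.07 for Atp6v0e2, -0.03 to 0.09 for Atp6ap1, -0.06 to 0.08 for Lamp2, -0.03 to 0.04 for Mcoln1, -0.04 to 0.07 for Tmem175, -0.04 to 0.07 for Ctsb, -0.01 to 0.15 for Ctsd, -0.11 to 0.03 for Hexa and -0.04 to 0.12 for Tfeb. Fnip2 passed the threshold with the exact test (adjusted p = 0.0377), the likelihood ratio test (0.0365) and DESeq2 (0.0210). The causes were not tested. No paired analysis was possible because no replicate number occurs in both genotypes. With 4 hearts a group and standard errors of 0.07 to 0.20, small changes of a member were not detectable.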
